A study of Bos taurus with 6 samples.

Results

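The genes described here are 38 genes of the complement and blood clotting systems, taken from the 34733 named genes of the series by their symbols; every one of the 38 was listed. They comprise 12 complement components, 7 complement regulators and receptors, 8 coagulation genes, 6 anticoagulant genes and 5 genes of fibrinolysis, the breakdown of clots. The RNA came from the uterine lining (endometrium) of Bos taurus, the cow, in the luteal phase, after ovulation. The comparison was between sorted populations with 3 libraries each. Side population (SP) cells pump out the DNA dye Hoechst 33342, and main population (MP) cells keep it. Both came from collagenase-digested intercaruncular endometrium of healthy slaughterhouse uteri without its luminal epithelium; dead cells were gated out with propidium iodide, verapamil, a transporter inhibitor, was used with the dye in part of the staining, and no antibody gate is given. The labels give neither breed nor age, and do not say whether the replicates are separate animals; p-values therefore measure only the spread of these samples, some of which may be technical. The columns of all MP libraries alone carry the word micro, which cannot be told apart from the population.

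Complement is a cascade of plasma proteins that tags and lyses microbes. The C1 complex starts its classical pathway, factors B and D amplify it, and membrane regulators such as CD46 and CD55 keep it off the body's own cells. Clotting starts when tissue factor meets plasma factors and ends in a fibrin mesh; thrombomodulin and other endothelial proteins restrain it, and plasmin, made from plasminogen by the activators tPA and uPA, dissolves it. The liver makes most of the circulating proteins, while macrophages, fibroblasts and endothelial cells make many of them in tissues, and clotting control matters in an endometrium that is remodelled in every cycle.

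Complement components were mostly lower in SP cells, whereas the membrane regulators CD46 and CD55, the endothelial clotting protein VWF and the protease inhibitor TFPI2 were higher. Values are FPKM, fragments scaled to transcript length and to the mapped fragments of the library, so levels can be compared between genes per length. Of the 38 genes, 34 reached 1 FPKM in 3 or more of the 6 libraries and were tested with limma on log2(FPKM + 1), as part of all 12127 tested genes; rose and fell refer to a Benjamini-Hochberg adjusted p under 0.05 there. In SP against MP, 5 of the 34 rose and 15 fell, and 14 did not pass. Of the 34, 14.7% rose and 44.1% fell, beside 20.5% and 18.7% of all tested genes, 39.2% in either direction. When each library was rescaled to an equal sum, 7 rose and 15 fell, and the share of rises among all calls over all genes was 68.0% in place of 52.3%. The number of rises depended on single libraries: it was 3, 1 and 3 without SP replicate 1, 2 or 3, and 1, 2 and 7 without MP replicate 1, 2 or 3. Without both libraries numbered 3, the filter still asked for 1 FPKM in 3 libraries, which left 22 of the genes to test, and 7 fell. C1QA, C1QC, C3, C2, C5AR1, CFP, F10 and F13A1, which fell with all 6 libraries, were then not tested. The smaller count and median there therefore do not show how these genes behave without replicate 3. The median log2 fold change was −0.82 over the 34 and 0.01 over all tested genes. The median of the genes tested was −0.49 without MP replicate 1 or without MP replicate 2, and −0.03 over the 22 left without both libraries numbered 3. It was −1.80 over the 24 genes with a mean of at least 5 FPKM and −1.37 with a pseudocount of 0.1 FPKM. A gene under 1 FPKM in every SP library enters the test only when all MP values reach 1 FPKM, so its direction is fixed beforehand. This applies to C2, C5AR1, CFP, F10 and F13A1, and to 3.83% of all tested genes. Without these 5, 10 fell, and without such genes 1828 of the 2269 falls over all tested genes remained. The values of SP and MP did not overlap for 23 of the 34, 7 with SP above and 16 with SP below MP, beside 28.3% and 26.5% of all tested genes, 54.8% in either direction. The 16 include C2, C5AR1, CFP, F10 and F13A1, for which the filter fixed this outcome too, as for 3.83% of all tested genes. For any gene without overlap a two-sided exact permutation of the 6 libraries gives p = 0.1, the smallest possible here.

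**Figure D1:**
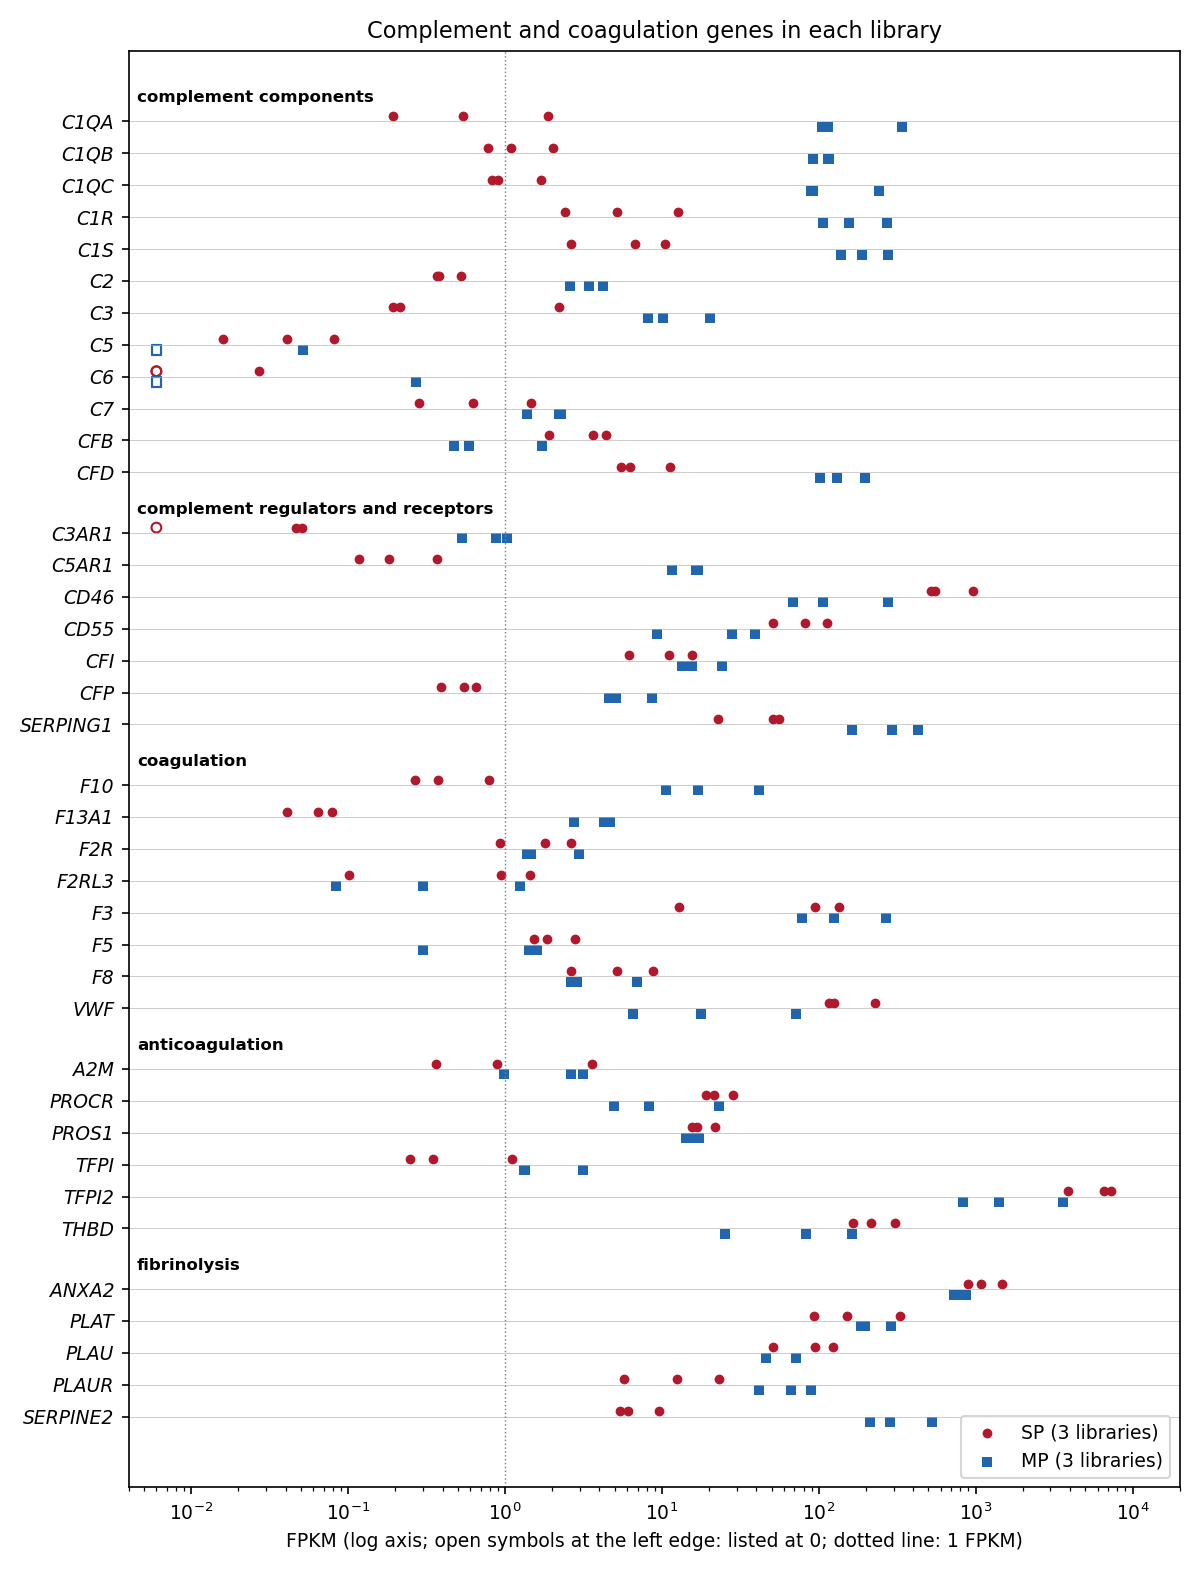
FPKM of the 38 genes in each of the 6 libraries on a log axis, grouped by role; circles are SP and squares are MP libraries, and open symbols at the left edge mark genes listed at 0. C1QA, C1QB, C1QC, C1R, C1S, CFD and SERPINE2 lie far lower in SP than in MP, and CD46, VWF and TFPI2 lie higher.

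The libraries differed in depth and in the RNA of other cell types. The lowest values put the depth at about 12200000 to 22100000 fragments in SP and 22200000 to 36800000 fragments in MP. Of 15 endothelial markers 14 rose and none fell, and their summed level was 1865 to 2801 FPKM in SP and 204 to 1067 FPKM in MP, where MP replicate 3 had the highest sum. Of 12 stromal fibroblast markers 10 fell and none rose, with sums of 302 to 507 FPKM in SP and 3037 to 11623 FPKM in MP, so that these markers of the stromal preparation were low but present in SP. Of 15 macrophage and other myeloid markers 10 were tested, 8 fell and none rose, with sums of 119 to 144 FPKM in SP and 392 to 700 FPKM in MP. CD14 made up most of that sum in SP (86.9 to 105 FPKM); MARCO is listed at 0 in all 6 libraries and MS4A7 in the 3 SP libraries. All 11 epithelial markers were tested and none passed, with sums of 199 to 1842 FPKM in SP and 1043 to 4752 FPKM in MP, and in both populations replicate 2 was highest. None of 9 platelet and megakaryocyte markers was tested, with sums of 1.13 to 1.41 FPKM in SP and 0.369 to 0.456 FPKM in MP; PPBP, GP6 and GP9 are listed at 0 throughout. Of the remaining lists, 6 of 11 pericyte and smooth muscle markers, 7 of 11 T and NK lymphocyte markers and 4 of 7 mast cell markers fell and none rose. Their sums were 338 to 540, 0.884 to 4.03 and 14.9 to 34.0 FPKM in SP and 1196 to 1977, 84.5 to 263 and 408 to 986 FPKM in MP. KIT, which did not pass, made up most of the mast cell sum in SP (13.5 to 32.3 FPKM). Of 9 hepatocyte markers 2 were tested and 1 fell, with sums of 84.7 to 351 FPKM in SP and 59.2 to 144 FPKM in MP. APOA1, which did not pass, made up most of these sums (82.2 to 347 FPKM in SP and 32.9 to 132 FPKM in MP). ALB, AHSG, FGA and FGG are listed at 0 throughout. In such sorted bulk samples fewer cells of a type and less RNA per cell cannot be told apart.

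The C1 complex fell in all its parts, and its 5 genes had the lowest log2 fold changes of the tested complement components. C1QA, C1QB and C1QC encode the A, B and C chains of C1q, the part of C1 that binds antibodies and is made mainly by macrophages. C1QA was at 0.193, 0.539 and 1.89 FPKM in SP and at 115, 105 and 337 FPKM in MP, each in the order of replicates 1 to 3, as in all that follows. C1QB was at 0.783, 1.09 and 2.02 FPKM in SP and at 91.3, 116 and 114 FPKM in MP. C1QC was at 0.830, 0.901 and 1.69 FPKM in SP and at 89.2, 91.5 and 242 FPKM in MP. In each case the lowest MP value lay far above the highest SP value, and SP replicate 3 was the highest SP library. Log2 fold changes were −6.53 ± 0.51 for C1QA, −5.59 ± 0.27 for C1QB and −5.91 ± 0.41 for C1QC (SE; limma adjusted p = 0.000568, 6.87e-05 and 0.000329). The chains did not keep to 1 ratio in MP: C1QA over C1QB was 1.26 and 0.907 in MP replicates 1 and 2 but 2.94 in MP replicate 3, and C1QC over C1QB was 0.976, 0.787 and 2.12. The summed myeloid markers were at 392, 700 and 552 FPKM in MP and highest in replicate 2; of the single markers, CD14, S100A8 and S100A9 were highest in MP replicate 3. The genes lie close together on chromosome 2 of build ARS-UCD1.2, C1QB at 130166515 to 130173256, C1QC at 130181311 to 130185710 and C1QA at 130189865 to 130192754, as whole loci with introns. Macrophage markers fell in the same libraries, and their part in the result was not tested.

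C1R and C1S encode the C1 proteases, which C1q activates and which fibroblasts also make. C1R was at 2.41, 5.17 and 12.7 FPKM in SP and at 271, 157 and 106 FPKM in MP. C1S was at 2.63, 6.77 and 10.4 FPKM in SP and at 278, 190 and 138 FPKM in MP. They lie 4024 bases apart on chromosome 5 (C1R 103376433 to 103403662, C1S 103407687 to 103418871) and were close to equal in level in every library, with a ratio of C1R over C1S of 0.764 to 1.22 in SP and 0.766 to 0.975 in MP. Log2 fold changes were −4.65 ± 0.54 for C1R and −4.83 ± 0.45 for C1S (SE; limma adjusted p = 0.0019 and 0.000912). Unlike the C1q chains, both were highest in MP replicate 1 and lowest in MP replicate 3. The summed fibroblast markers had the same order, 11623, 5256 and 3037 FPKM in MP replicates 1 to 3, and the part of these cells in the result was not tested. Of all genes that fell, 51.6% were likewise highest in MP replicate 1.

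Downstream, C3 and CFD fell while CFB rose. C3, the central protein of all complement pathways, was at 0.215, 0.193 and 2.21 FPKM in SP and at 20.3, 8.16 and 10.1 FPKM in MP, or as log2 fold change −2.96 ± 0.47 (SE; limma adjusted p = 0.00457). CFD encodes factor D, the protease that cuts factor B, and was at 5.52, 6.29 and 11.2 FPKM in SP and at 102, 197 and 131 FPKM in MP (−4.06 ± 0.34 SE; limma adjusted p = 0.000689). For both genes all MP libraries lay above all SP libraries. C2 and CFB encode homologous proteases of the classical and alternative pathways and lie 431 bases apart on chromosome 23, C2 at 27421809 to 27433617 and CFB at 27415351 to 27421377. They differed in opposite directions, but C2, under 1 FPKM in every SP library, could differ in that direction only. C2 was at 0.367, 0.378 and 0.521 FPKM in SP and at 2.60, 4.23 and 3.41 FPKM in MP (−1.62 ± 0.22 SE; limma adjusted p = 0.00283). CFB was at 1.90, 4.41 and 3.65 FPKM in SP and at 0.474, 0.588 and 1.73 FPKM in MP (1.17 ± 0.34 SE; limma adjusted p = 0.0288), with SP replicate 1 only just above MP replicate 3. The level of CFB over that of C2 was 5.18, 11.7 and 7 in SP and 0.183, 0.139 and 0.507 in MP, ranges that lie apart. The SP ratios rest on C2 values under 1 FPKM. This pair was chosen after its values were seen and no test is given. The rise of CFB was not called without SP replicate 2, SP replicate 3, MP replicate 1 or MP replicate 2 (log2 fold changes of 0.98, 1.09, 1.01 and 1.06; limma adjusted p = 0.0882, 0.0817, 0.0884 and 0.0892).

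The terminal components, which build the pore that lyses cells, were low in both populations. C5 was at most 0.0813 FPKM in SP and 0.0513 FPKM in MP, and C6 at most 0.0269 FPKM in SP and 0.271 FPKM in MP; neither was tested, C5 is listed at 0 in 2 MP libraries, and C6 in 2 SP and 2 MP libraries. C7 was at 0.283, 0.628 and 1.47 FPKM in SP and at 1.39, 2.26 and 2.21 FPKM in MP, and SP replicate 3 lay above MP replicate 1. Its log2 fold change of −0.76 ± 0.29 did not pass (SE; limma adjusted p = 0.0691), but without SP replicate 3 it did (−1.02; limma adjusted p = 0.0363).

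**Figure D2:**
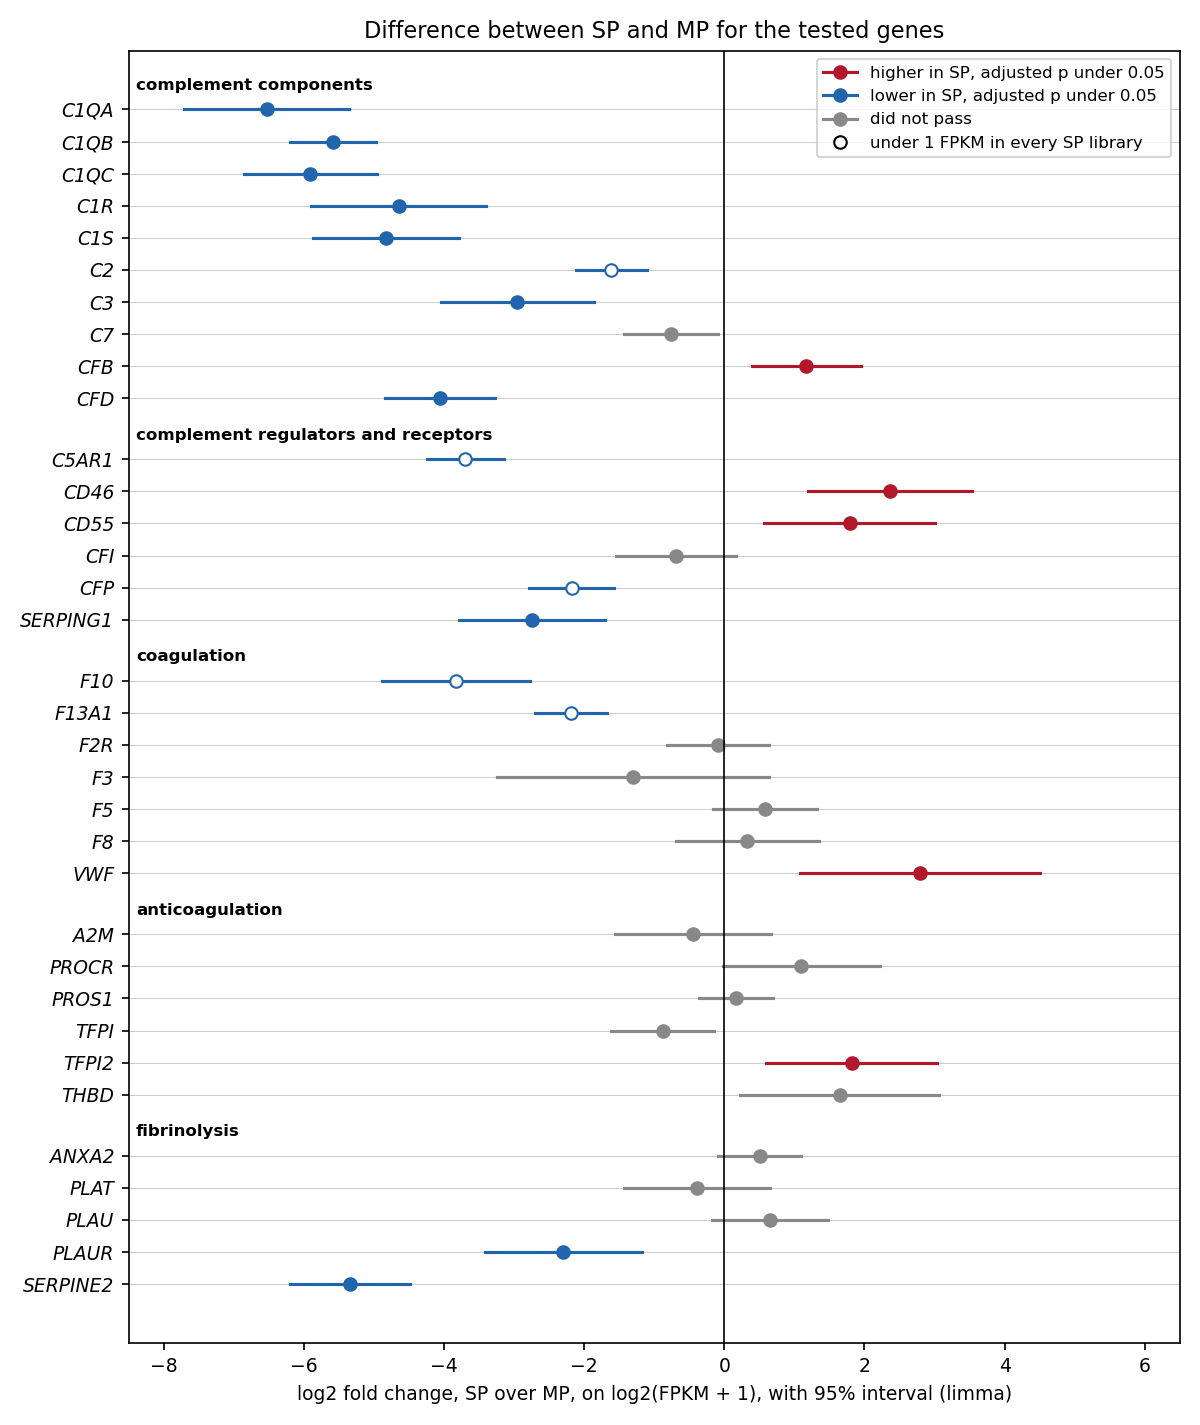
Log2 fold change of SP over MP on the log2(FPKM + 1) scale for the 34 tested genes with 95% intervals from limma; red rose, blue fell and grey did not pass, and open points are genes under 1 FPKM in every SP library. C1QA has the lowest value at −6.53 and VWF the highest at 2.79.

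Among the 7 regulators and receptors, the secreted C1 inhibitor and properdin fell. Properdin, under 1 FPKM in every SP library, could differ in that direction only. CD46 and CD55, which are anchored in the cell membrane, rose. Another membrane regulator, CD59, which blocks the lytic pore, did not pass and lay the other way; it is not one of the 38 genes and was named after its values were seen. It was at 10.8, 43.8 and 20.4 FPKM in SP and at 32.4, 122 and 66.3 FPKM in MP (log2 fold change −1.53; limma adjusted p = 0.0716), and it passed as lower without SP replicate 2 or MP replicate 1 (−2.03 and −2.02; limma adjusted p = 0.0398 and 0.0463). CD46, a cofactor for inactivating C3b and C4b on the cell's own surface, was at 969, 549 and 523 FPKM in SP and at 68.7, 106 and 275 FPKM in MP. No library overlapped, MP replicate 3 was nearest to SP, and the log2 fold change was 2.36 ± 0.50 (SE; limma adjusted p = 0.011). Mean levels were 680 ± 250 FPKM (SP) and 150 ± 110 FPKM (MP; SD, n = 3 each). CD46 lies on chromosome 16 at 75582021 to 75621156. CD55, which speeds the decay of C3 convertases, was at 50.9, 113 and 81.7 FPKM in SP and at 9.29, 39.1 and 28.0 FPKM in MP (1.79 ± 0.52 SE; limma adjusted p = 0.0309). In both populations its replicate 2 was highest and its replicate 1 lowest. It was not called without SP replicate 2, SP replicate 3 or MP replicate 1 (log2 fold changes of 1.52, 1.75 and 1.21; limma adjusted p = 0.0919, 0.0789 and 0.0594). SERPING1, the C1 inhibitor, which blocks C1R and C1S, was at 22.7, 50.8 and 55.9 FPKM in SP and at 432, 294 and 164 FPKM in MP (−2.75 ± 0.45 SE; limma adjusted p = 0.005). Like its targets it was highest in MP replicate 1 and lowest in MP replicate 3.

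CFP encodes properdin, which stabilises the alternative C3 convertase, and was at 0.551, 0.654 and 0.392 FPKM in SP and at 4.62, 5.10 and 8.70 FPKM in MP (−2.18 ± 0.26 SE; limma adjusted p = 0.00218). CFI, the protease that uses CD46 as cofactor, was at 6.14, 15.5 and 11.1 FPKM in SP and at 15.6, 24.3 and 13.4 FPKM in MP; SP replicate 2 lay among the MP values, and the log2 fold change of −0.69 (95% interval −1.54 to 0.16) did not pass. Its listed locus holds another gene, so reads of the pair may not be told apart. The receptor C5AR1, by which myeloid cells sense C5a, was at 0.117, 0.183 and 0.369 FPKM in SP and at 17, 11.6 and 16.4 FPKM in MP (−3.70 ± 0.24 SE; limma adjusted p = 0.000306). Under 1 FPKM in every SP library, C5AR1 too could differ in that direction only. C3AR1, the receptor of C3a, did not pass the filter. It was at 0.0464 and 0.0510 FPKM in SP replicates 1 and 3 and listed at 0 in SP replicate 2, and at 0.882, 0.534 and 1.03 FPKM in MP, so its values did not overlap either; tested without the filter it was lower in SP (log2 fold change −0.80; limma adjusted p = 0.0129). Both receptors mark myeloid cells, whose other markers fell in the same libraries, and the part of these cells in the result was not tested.

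Of the 7 tested coagulation genes VWF rose and 4 did not pass; F10 and F13A1 fell, but as genes under 1 FPKM in every SP library they could differ in that direction only. VWF encodes von Willebrand factor, which endothelial cells store and which tethers platelets (chromosome 5, 104187287 to 104345683). It was at 126, 227 and 116 FPKM in SP and at 6.54, 17.8 and 71.6 FPKM in MP, or as log2 fold change 2.79 ± 0.74 (SE; limma adjusted p = 0.0222). All SP libraries lay above all MP libraries, and MP replicate 3 was nearest to SP, as it was for the summed endothelial markers (204, 359 and 1067 FPKM in MP replicates 1 to 3); the part of endothelial cells in the result was not tested. The platelet markers PPBP, GP6 and GP9 are listed at 0 in every library. Another, ITGA2B, was at 1.33, 0.85 and 1.05 FPKM in SP and at 0.132, 0.29 and 0.374 FPKM in MP. All its SP values lay above its MP values, and it did not pass the filter. The call of VWF was lost without SP replicate 1, SP replicate 2, MP replicate 1 or MP replicate 2 (log2 fold changes of 2.91, 2.49, 2.03 and 2.69; limma adjusted p = 0.0544, 0.067, 0.0506 and 0.067).

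F10 encodes factor X, the protease that makes thrombin. It was at 0.373, 0.266 and 0.788 FPKM in SP and at 41.5, 10.7 and 17.1 FPKM in MP (−3.83 ± 0.45 SE; limma adjusted p = 0.00203). Its locus on chromosome 12 (86491664 to 86513750) is listed with the same coordinates as that of F7, which was at most 0.545 FPKM, so their reads may not be told apart. F13A1, the A subunit of the fibrin cross-linking factor XIII and a gene of tissue macrophages, was at 0.0408, 0.0639 and 0.0785 FPKM in SP and at 2.76, 4.70 and 4.25 FPKM in MP (−2.19 ± 0.22 SE; limma adjusted p = 0.00125). Both genes were under 1 FPKM in every SP library and above it in every MP library.

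F3, tissue factor, which starts clotting, did not pass, and its replicates spread widely. It was at 12.9, 134 and 94.0 FPKM in SP and at 126, 267 and 77.9 FPKM in MP, and its log2 fold change was −1.30 (95% interval −3.25 to 0.64; limma adjusted p = 0.242). SP replicate 1 was lowest and MP replicate 2 highest, which also held for the summed epithelial markers at 199 and 4752 FPKM; the part of epithelial cells was not tested. F5, the cofactor of factor X, was at 1.52, 1.84 and 2.81 FPKM in SP and at 0.299, 1.42 and 1.59 FPKM in MP (log2 fold change 0.58, 95% interval −0.16 to 1.32), with SP replicate 1 below MP replicate 3. F8, the cofactor of factor IX, was at 2.64, 8.75 and 5.17 FPKM in SP and at 2.62, 2.87 and 6.90 FPKM in MP (0.33, −0.69 to 1.35). The listed locus of F8 also holds FUNDC2, which reached 82.3 FPKM, so its values are uncertain. The listed loci of VWF, PLAUR, TFPI, C1R and F13A1 also hold genes known only by a locus number, which were at most 1.22 FPKM in any library. The thrombin receptor F2R was at 0.934, 1.79 and 2.62 FPKM in SP and at 1.38, 2.97 and 1.47 FPKM in MP (−0.09, −0.82 to 0.64), and the populations overlapped. Another thrombin receptor, F2RL3, was not tested, at 0.101 to 1.45 FPKM in SP and 0.0841 to 1.24 FPKM in MP.

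Of the 6 anticoagulant genes TFPI2 rose, none fell and 5 did not pass. TFPI2, a Kunitz-type inhibitor of plasmin and other proteases, was the most abundant of the 38 genes and ranked 13 in SP and 80 in MP among all listed genes by mean FPKM (chromosome 4, 11204080 to 11208388). It was at 6556, 7247 and 3872 FPKM in SP and at 828, 1416 and 3589 FPKM in MP, or as log2 fold change 1.82 ± 0.53 (SE; limma adjusted p = 0.0301). MP replicate 3 lay just under SP replicate 3, and the other MP libraries far below. The call was lost without SP replicate 1, SP replicate 2, MP replicate 1 or MP replicate 2 (log2 fold changes of 1.71, 1.64, 1.33 and 1.72; limma adjusted p = 0.0849, 0.086, 0.0868 and 0.089). The related TFPI, the inhibitor of tissue factor and factor X, was low and lay the other way, at 0.248, 0.350 and 1.11 FPKM in SP and at 1.32, 1.34 and 3.13 FPKM in MP. Its log2 fold change of −0.88 ± 0.32 (SE) did not pass (limma adjusted p = 0.0575) although no SP value reached the MP values, and without SP replicate 3 it passed (−1.12; limma adjusted p = 0.0459).

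THBD and PROCR encode thrombomodulin and the endothelial protein C receptor, which together turn thrombin into an activator of the anticoagulant protein C. THBD was at 214, 305 and 166 FPKM in SP and at 25.2, 82.6 and 163 FPKM in MP; the log2 fold change was 1.65 ± 0.61 (SE; limma adjusted p = 0.0658). PROCR was at 19.2, 21.6 and 28.2 FPKM in SP and at 8.33, 4.98 and 23.3 FPKM in MP (1.10 ± 0.48 SE; limma adjusted p = 0.104). For both the outlying library was MP replicate 3, which all but reached SP for THBD and overlapped it for PROCR. Without MP replicate 3 both passed, with log2 fold changes of 2.25 and 1.67 (limma adjusted p = 0.0159 and 0.00782). PROS1, protein S, the cofactor of protein C, was at 16.7, 21.9 and 15.5 FPKM in SP and at 15.9, 14.3 and 17.3 FPKM in MP, giving 0.17 on the log2 scale (95% interval −0.36 to 0.70). A2M, a trap for many proteases, was at 0.363, 0.890 and 3.59 FPKM in SP and at 2.65, 3.13 and 0.982 FPKM in MP (−0.45, −1.56 to 0.67), with SP replicate 3 the highest of all libraries.

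In fibrinolysis SERPINE2 and PLAUR fell, while both plasminogen activators did not pass. SERPINE2, also called protease nexin-1, inhibits thrombin, uPA and tPA (chromosome 2, 112087763 to 112158834). It was at 6.09, 5.41 and 9.60 FPKM in SP and at 527, 286 and 213 FPKM in MP, or as log2 fold change −5.34 ± 0.37 (SE; limma adjusted p = 0.000329) with means of 7.03 ± 2.25 FPKM (SP) and 342 ± 164 FPKM (MP; SD, n = 3 each). Its MP order, replicate 1 highest and replicate 3 lowest, was that of C1R, C1S, SERPING1, PLAUR and the summed fibroblast markers. This order was common among genes that fell. Of the 15 that fell, 53.3% were highest in MP replicate 1, beside 51.6% of all genes that fell. In MP replicate 3, 5 of the 15 were lowest, beside 1163 of all 2269 genes that fell. PLAUR, the receptor that holds uPA at the cell surface, was at 12.4, 5.76 and 23.3 FPKM in SP and at 89.3, 66.4 and 41.8 FPKM in MP (−2.30 ± 0.48 SE; limma adjusted p = 0.0105), again with all SP values below all MP values. PLAU, which encodes uPA, was at 123, 51.1 and 95.1 FPKM in SP and at 46.2, 46.1 and 71.4 FPKM in MP (0.65, 95% interval −0.18 to 1.48). PLAT, which encodes tPA, an activator released by endothelial cells, was at 331, 93.4 and 151 FPKM in SP and at 290, 185 and 198 FPKM in MP (−0.39, −1.43 to 0.65). Relative to its receptor, PLAU was at 9.96, 8.87 and 4.07 times the PLAUR level in SP and at 0.517, 0.695 and 1.71 times in MP, ranges that lie apart; this ratio was chosen after its values were seen and carries no test. ANXA2, a surface scaffold for plasminogen and tPA, was at 1079.8, 1479 and 889 FPKM in SP and at 730, 864 and 787 FPKM in MP. All SP values exceeded all MP values, but the log2 fold change of 0.51 (95% interval −0.09 to 1.10) did not pass (limma adjusted p = 0.147).

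**Figure D3:**
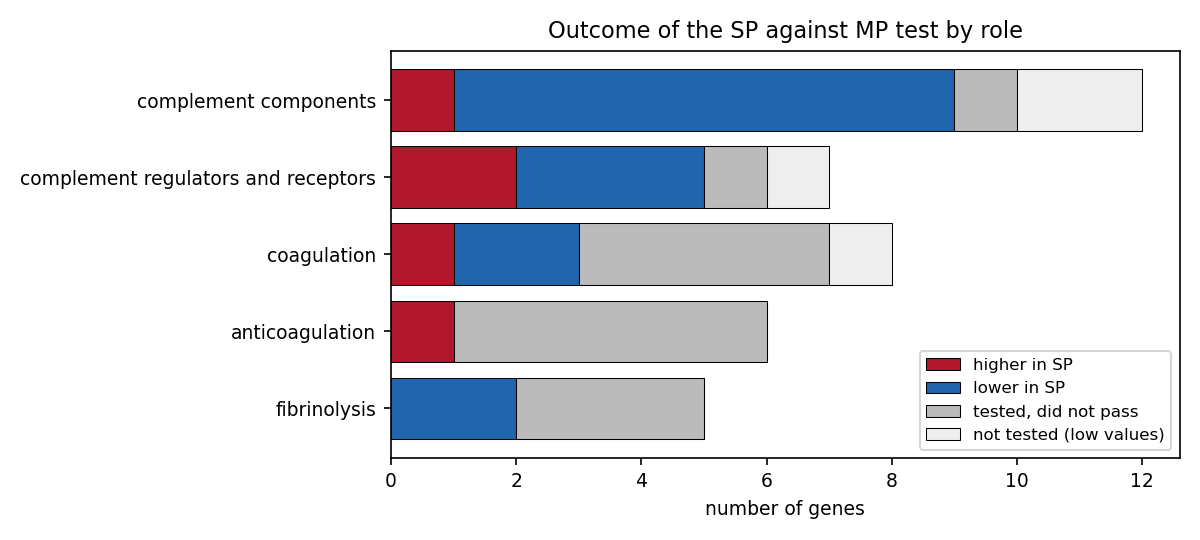
Number of genes in each role that rose, fell, did not pass or were not tested in SP against MP. Falls outnumber rises among the complement components, 8 against 1 of 10 tested, and the 2 falls in coagulation are genes under 1 FPKM in every SP library; 5 of 6 anticoagulant genes did not pass.

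By role, 8 of 10 tested complement components fell and 1 rose, with a median log2 fold change of −4.36. Leaving out genes whose direction the filter fixed, 7 components fell. Of 6 tested regulators and receptors 3 fell and 2 rose (median −1.44), with 1 fall, SERPING1, that the filter did not fix. Of 7 tested coagulation genes 2 fell and 1 rose (median −0.09), and both falls were fixed by the filter. None of 6 anticoagulant genes fell and 1 rose (median 0.63), and of 5 fibrinolysis genes 2 fell and none rose (median −0.39). Over all tested genes 20.5% rose and 18.7% fell, and 1 of 6 or 1 of 7 is near that share. Of the 2269 falls over all tested genes, 1828 were not fixed by the filter. Differences between roles were not tested. Taken as sums per library, complement components made up 15.2, 26.4 and 47.9 FPKM in SP and 972, 873 and 1086 FPKM in MP. Anticoagulant genes, mostly TFPI2, made up 6806, 7597 and 4087 FPKM in SP and 881, 1522 and 3798 FPKM in MP.

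Of the 15 that fell, 14 were highest in SP replicate 3 among the SP libraries, beside 42.8% of all genes that fell. The summed markers of fibroblasts (349, 302 and 507 FPKM in SP) were also highest in SP replicate 3. So were those of pericytes and smooth muscle (338, 423 and 540 FPKM) and of T and NK lymphocytes (0.890, 0.884 and 4.03 FPKM). GZMB alone made up 3 FPKM of that lymphocyte sum in SP replicate 3. The myeloid sum (144, 122 and 119 FPKM), in SP mostly CD14, was lowest there. The median of the myeloid markers (0, 0.0333 and 0.175 FPKM) was highest there. Of the 5 that rose, 4 had their highest SP value in replicate 2, beside 16.1% of all genes that rose. Of all genes that rose, 70% were highest in SP replicate 1, as were the summed endothelial markers (2801, 1909.5 and 1865 FPKM in SP). In MP, 4 of the 5 had their highest value in replicate 3, beside 66.5% of all genes that rose. The summed endothelial markers were highest in MP replicate 3 too. CD55 was the exception, with MP replicate 2 highest. ANXA2, CD55, CFI and F3, 11.8% of the 34, were highest in replicate 2 in both populations, as were the summed epithelial markers; among all tested genes the share was 16.0%. C1QA, C1QC, F5, PROCR and TFPI, 14.7%, were highest in replicate 3 in both, beside 7.94% of all tested genes, and PLAT alone was highest in replicate 1 in both. The part of these cell types in the differences was not tested.

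**Figure D4:**
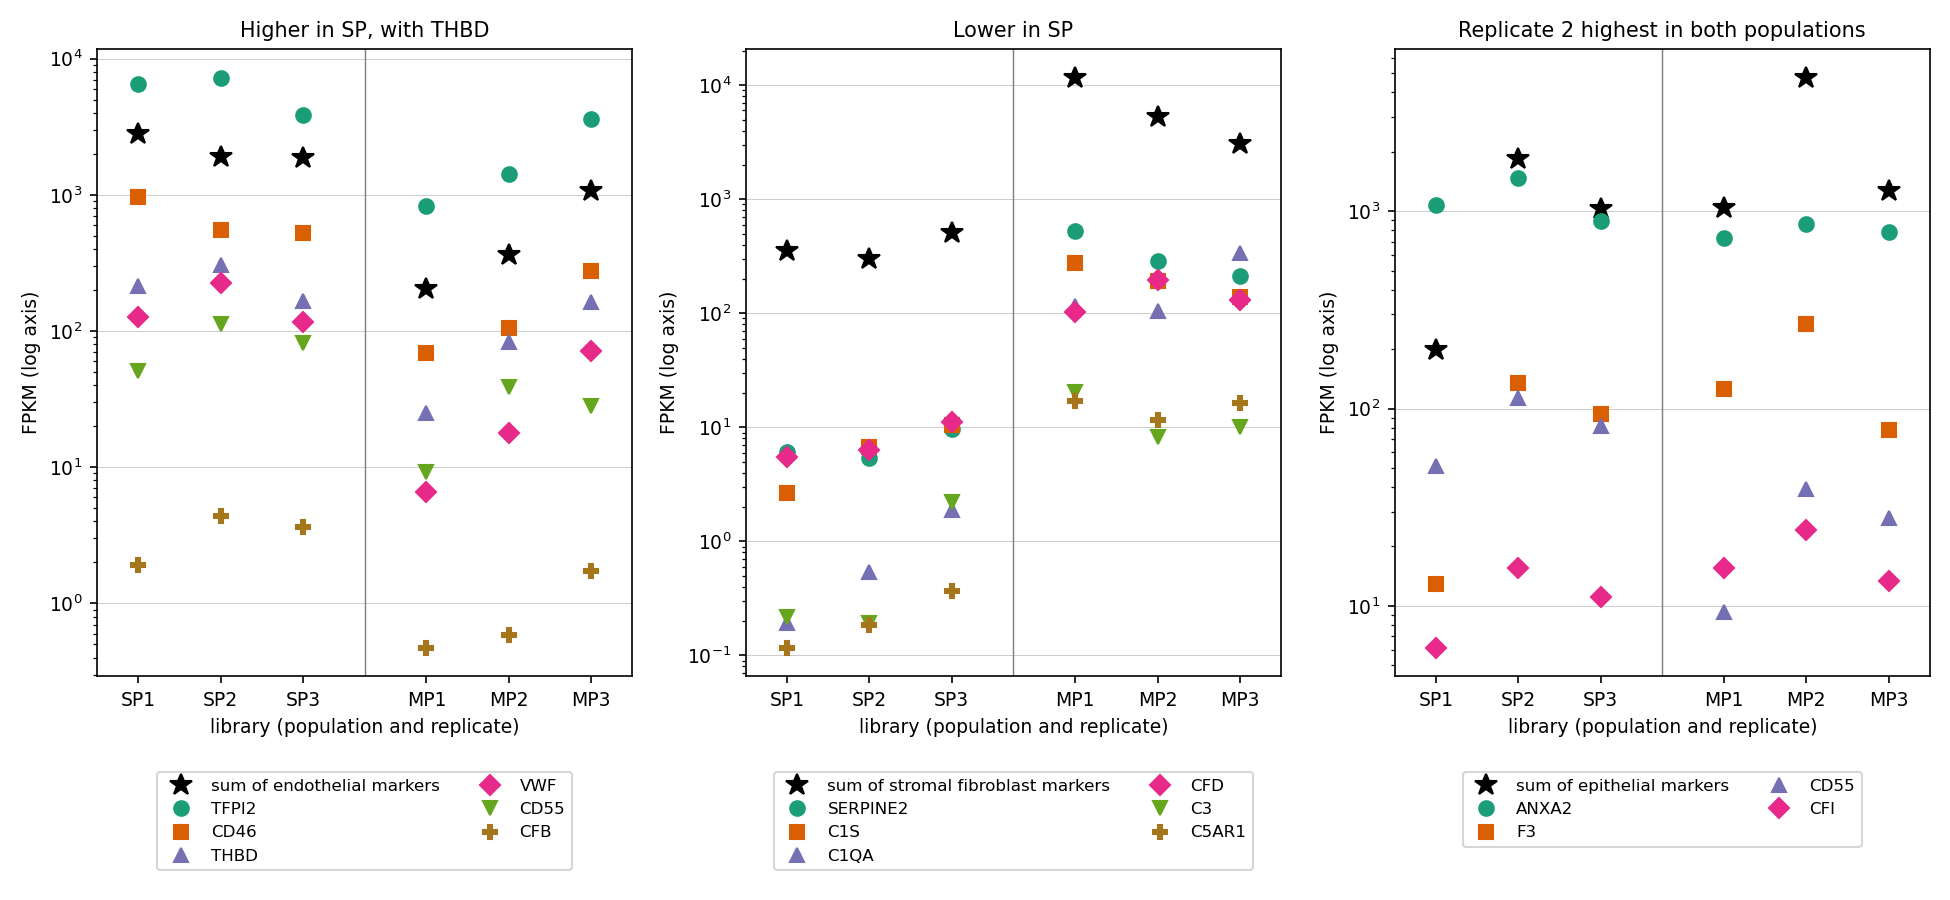
FPKM on a log axis in SP replicates 1 to 3 and MP replicates 1 to 3; coloured symbols are genes and black stars are summed marker levels. On the left, genes that rose and THBD stand with endothelial markers at 204 to 1067 FPKM in MP; in the middle, genes that fell stand with fibroblast markers at 302 to 507 FPKM in SP; on the right, genes highest in replicate 2 stand with epithelial markers.

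The other genes of these cascades were taken from a list of 82 symbols, of which 77 were found, as 78 entries. Of these 34 were tested, 6 rose, 10 fell and 18 did not pass, with a median log2 fold change of −0.59. That is 17.6% and 29.4% of those tested, beside 20.5% and 18.7% of all tested genes. The filter fixed the direction of 4 of the 10 falls, which leaves 6, beside 1828 of 2269 over all tested genes. Some transcripts of proteins that circulate from the liver were absent: FGA, FGG, PLG, F9, MBL2 and C8B are listed at 0 in all 6 libraries. Others were not: C8G was at 3.79 to 9.03 FPKM in SP and 6.48 to 11.8 FPKM in MP. C4A was at 1.48 to 4.07 FPKM in SP and 3.44 to 10.7 FPKM in MP. All these examples were picked after their values were seen. Among the other complement components and initiators COLEC12 and FCN1 fell, the direction of FCN1 being fixed by the filter. COLEC12, a scavenger receptor collectin, was at 0.925, 1.75 and 2.74 FPKM in SP and at 31.0, 22.4 and 23.1 FPKM in MP (log2 fold change −3.28; limma adjusted p = 0.000891). FCN1, a ficolin of myeloid cells, was at 0.0578 to 0.101 FPKM in SP and 3.32 to 4.85 FPKM in MP (−2.26; limma adjusted p = 0.000856). Among regulators and receptors CLU, clusterin, an inhibitor of the lytic pore, rose, at 2853, 3595 and 2485 FPKM in SP and at 1003, 1174 and 1783 FPKM in MP (1.2; limma adjusted p = 0.0167). Its call was lost without SP replicate 2, MP replicate 1 or MP replicate 2 (limma adjusted p = 0.0573, 0.0619 and 0.0643). ITGB2, the common chain of leukocyte integrins that serve as complement receptors, fell (−2.43; limma adjusted p = 0.00167), as did VSIG4, a C3b receptor of macrophages (−1.69; limma adjusted p = 0.0125), and C5AR2, another C5a receptor (−1.06; limma adjusted p = 0.0157). C5AR2 did not pass without SP replicate 1 or SP replicate 3 (limma adjusted p = 0.0567 and 0.052). The 4 falls fixed by the filter were FCN1, ITGB2, VSIG4 and PROZ, each under 1 FPKM in every SP library.

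Of the genes that serve the vitamin K dependent clotting factors, GGCX rose and VKORC1 fell. GGCX, the carboxylase that activates such factors, was at 16.3, 8.18 and 10.7 FPKM in SP and at 2.64, 1.78 and 5.16 FPKM in MP (log2 fold change 1.63; limma adjusted p = 0.013). VKORC1, which recycles the vitamin for it, was at 61.1, 53.9 and 42.8 FPKM in SP and at 138, 103 and 105 FPKM in MP (−1.12; limma adjusted p = 0.0109). F2RL2, a thrombin receptor, fell (−1.80; limma adjusted p = 0.00884). LMAN1, a carrier of factors V and VIII out of the endoplasmic reticulum, rose (0.84; limma adjusted p = 0.0345), a call lost without any one of the 6 libraries (limma adjusted p from 0.0539 to 0.112). On the list drawn up for anticoagulant genes GAS6 (1.84) and ENTPD1 (1.09) rose and PROZ (−1.63) and ANXA5 (−0.71) fell (limma adjusted p = 0.0241, 0.0467, 0.0088 and 0.0461). A place on this list does not show that a gene acts against clotting, and the role of GAS6 there was not tested. PROZ, under 1 FPKM in every SP library, could differ in that direction only. It was called without any one SP library and could not be tested without any one MP library. GAS6 was lost without SP replicate 1 or 2 or MP replicate 1 or 2. ENTPD1 was lost without any one library but MP replicate 3, and ANXA5 without any one library. In fibrinolysis LRP1, the endocytic receptor that clears activator and inhibitor complexes, fell (−1.77; limma adjusted p = 0.00972). THBS1, thrombospondin 1, was at 587, 589 and 386 FPKM in SP and at 118, 294 and 128 FPKM in MP (1.63; limma adjusted p = 0.0152), a call lost without SP replicate 1 or MP replicate 1.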

How the data were processed

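RNA of 3 SP and 3 MP libraries was measured by stranded mRNA sequencing (TruSeq kit with MGI conversion, per the labels' protocols). Reads were trimmed with cutadapt 2.5 and aligned with HISAT2 2.1.0 to ARS-UCD1.2, per the submitters' processing notes. The authors deposited FPKM per gene, per the file headers; what made them, with which annotation and use of strand, is not given in the sources used here. No counts were used, so depth was estimated from the lowest values and carries that uncertainty.

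Genes were matched by symbol. A nameless row, 0.185 to 0.347% of the FPKM sum in SP and 0.743 to 1.91% in MP, was left out. Locus starts, which count from 0, were raised by 1; chromosome names came from the RefSeq gene table of ARS-UCD2.0 and all coordinates from the files. The 12127 genes that reached 1 FPKM in 3 or more libraries were tested with limma 3.58.1 in R 4.3.3 on log2(FPKM + 1) with a trend in the prior variance, two-sided, Benjamini-Hochberg over all tested genes, threshold 0.05; the fold change understates that of low genes. The procedure was tested on simulated data in which 200 of 12127 genes were changed. Of genes changed by a log2 fold change of 1, 2, 3 or 4, it called 6, 70, 78 and 94% in the right direction. Of all its calls 6.77% were false. Far more genes, 4759, were called in the real data, so these shares need not hold there. Every one of the 38 genes is accounted for; of the other cascade genes up to 4 called genes per list were named by smallest p. The genes and lists were chosen with earlier results of these data known. Alternatives covered the filter, pseudocount, scaling, test, replicate number as a block and leaving out libraries.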

Additional observations from a re-analysis of the deposited data

How the results depend on the processing

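The 15 genes that fell and CD46 kept their calls under every alternative at the 0.05 threshold in which they were tested. CFB lost its call in 5 of 16 (limma adjusted p between 0.0114 and 0.0892), and CD55, VWF and TFPI2 in 5 of 18 each (0.00994 to 0.0961, 0.00346 to 0.067 and 0.00661 to 0.089). Without a filter on low values 1 of the 38 genes and 3 of the other cascade genes rose. At a threshold of 0.01 on limma's adjusted p, 0 of the 38 genes and 0 of the other cascade genes rose (6 and 7 at an unadjusted p under 0.05), 6 other cascade genes fell, and 773 of all genes rose and 982 fell. With a mean of at least 5 FPKM, 6 other cascade genes fell. Leaving out 1 library at a time gave 1 to 7 rises and 10 to 17 falls among the 38 genes, 1 to 7 rises and 5 to 10 falls among the other cascade genes, and 1056 to 2574 rises and 1126 to 1881 falls among all genes. Without any one MP library, C2, C5AR1, CFP, F10 and F13A1 no longer passed the filter. Without both libraries numbered 3, an alternative chosen after seeing the data, 7 of the 38 genes and 2 of the other cascade genes fell, and 1648 of all genes rose and 1063 fell. C1QA, C1QC, C3, C2, C5AR1, CFP, F10 and F13A1 then no longer passed the filter. Rescaling each library to an equal sum moved the median log2 fold change of all genes to 0.19; THBD and ANXA2 then passed (limma adjusted p = 0.0275 and 0.0394).

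The replicate numbers were not taken as pairs: same-numbered libraries had deviation correlations of 0.10, 0.53 and −0.09, and SP replicate 1 correlated best with MP replicate 3 (0.28). With the replicate block 5 of the 38 genes rose and 17 fell, C7 and TFPI being added, 5 of the other cascade genes rose and 12 fell, and 2435 of all genes rose and 2358 fell.

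Signs turned round for 7 genes, none of which passed. The log2 fold change of F2R became 0.07 after rescaling to an equal sum, 0.04 after quantile normalization and 0.15 without SP replicate 1 or MP replicate 2. F8 became −0.02 and PLAT 0.02 without SP replicate 2. C1QBP became 0.11 after rescaling and 0.07 without MP replicate 2, and ENO1 0.13 after rescaling and 0.02 without MP replicate 1. S100A10 became −0.01 after quantile normalization, −0.01 with median of ratios factors, −0.02 with array weights, −0.22 without SP replicate 2 and −0.11 without MP replicate 1. F2RL1 became 0.34 without SP replicate 1 and 0.23 without MP replicate 2. Over the leave-one-out fits the log2 fold changes lay between −0.30 and 0.15 for F2R, −0.02 and 0.69 for F8, −0.88 and 0.02 for PLAT, −0.23 and 0.07 for C1QBP, −0.24 and 0.02 for ENO1, −0.22 and 0.35 for S100A10 and −1.65 and 0.34 for F2RL1. The cause of these changes was not tested. C5, C6, C3AR1 and F2RL3 were tested only without the filter, where C3AR1 was lower in SP (log2 fold change −0.80; limma adjusted p = 0.0129) and the other 3 did not pass (0.519, 0.494 and 0.679).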
